A study of Mus musculus with 22 samples.

Results

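The 10 genes described here belong to tendon, ligament and the joint surface. They were followed across a study of mouse chondrocytes with a conditional deletion of the DNA methyltransferase gene Dnmt1. They were chosen by name as Scx, Tnmd, Mkx, Thbs2, Thbs4, Fmod, Prg4, Cilp, Kera and Tppp3. Each symbol matched 1 row in every count table, so the set held 10 of 34866 genes in the culture tables and 10 of 23911 in the cartilage table. Messenger RNA was measured in 22 samples. Cultures of primary knee chondrocytes came from mice at postnatal days 3 to 5: 3 control and 3 mutant cultures with no BMP2 in their labels (day 0), and 4 control and 4 mutant cultures given bone morphogenetic protein 2 (BMP2, labelled 100 ng/µl) over 3 days (day 3). Cartilage of mice at postnatal day 5, digested with collagenase to clear connective tissue, gave 4 control and 4 mutant samples, with 2 males and 2 females in each genotype. Control cultures carried the genotype Dnmt1 flox and mutant cultures Prrx1-Cre;Dnmt1 flox/flox. The cartilage samples were labelled flox and cKO, and cKO is used below for every mutant group. The flox allele was therefore shared by controls and mutants. The Prrx1 promoter drives Cre in early limb mesenchyme, which also gives rise to tendon, ligament, bone and joint tissue, so the deletion is not restricted to chondrocytes.

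Tendon cells and the cells of the joint surface descend from limb mesenchyme, as chondrocytes do. The transcription factors scleraxis (Scx) and mohawk (Mkx) direct tendon formation, and tenomodulin (Tnmd) is a membrane protein of maturing tendon cells. Tppp3, a tubulin-binding protein, marks cells of the tendon sheath. Thrombospondins 2 and 4 (Thbs2, Thbs4), fibromodulin (Fmod) and keratocan (Kera) belong to the matrix, where fibromodulin and keratocan bind collagen fibrils as class II small leucine-rich proteoglycans. Lubricin (Prg4) lubricates the articular surface, and cartilage intermediate layer protein (Cilp) lies in the matrix of articular cartilage. Dnmt1 copies methylation of CG dinucleotides onto newly made DNA strands, and many promoters dense in CG are unmethylated in most cells.

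In GRCm38 with the GENCODE M21 annotation, all 10 are protein-coding genes, read here over all their exons. The factor genes are Scx (ENSMUSG00000034161) at chr15:76457452-76459458 (+) and Mkx (ENSMUSG00000061013). The cell markers are Tnmd (ENSMUSG00000031250) at chrX:133850980-133865577 (+) and Tppp3 (ENSMUSG00000014846) at chr8:105467493-105471526 (−). The thrombospondin genes are Thbs2 (ENSMUSG00000023885) at chr17:14665500-14694235 (−) and Thbs4 (ENSMUSG00000021702) at chr13:92751590-92794818 (−). The proteoglycan genes are Fmod (ENSMUSG00000041559) at chr1:134037254-134048277 (+) and Kera (ENSMUSG00000019932) at chr10:97606879-97613692 (+). The joint surface genes are Prg4 (ENSMUSG00000006014) at chr1:150449412-150466165 (−) and Cilp (ENSMUSG00000042254) at chr9:65265180-65280605 (+).

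Sequence upstream of the RefSeq start was available for 6 of the 10 genes: Tnmd, Thbs2, Thbs4, Fmod, Cilp and Kera. The 250 bases before the start are shown for Tnmd and Fmod, which were lower in mutant cultures at day 0, for Thbs2, which differed most between genotypes among the members tested at day 3, and for its relative Thbs4, with each CG in capitals, 5′ to 3′ on the strand of the gene (RefSeq, GRCm38.p6). The windows are chrX:133850758-133851007 (+) for Tnmd, chr17:14694263-14694512 (−) for Thbs2, chr13:92794819-92795068 (−) for Thbs4 and chr1:134037004-134037253 (+) for Fmod. RefSeq and GENCODE place some starts differently. The end of the Tnmd window therefore lies inside the gene as given above. The Kera window (chr10:97606955-97607204) lies wholly inside its gene as given above.
Tnmd: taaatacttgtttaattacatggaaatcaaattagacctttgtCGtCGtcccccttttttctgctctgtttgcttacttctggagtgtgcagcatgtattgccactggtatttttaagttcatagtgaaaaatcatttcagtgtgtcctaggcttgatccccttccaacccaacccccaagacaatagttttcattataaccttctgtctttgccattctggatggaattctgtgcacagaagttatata
Thbs2: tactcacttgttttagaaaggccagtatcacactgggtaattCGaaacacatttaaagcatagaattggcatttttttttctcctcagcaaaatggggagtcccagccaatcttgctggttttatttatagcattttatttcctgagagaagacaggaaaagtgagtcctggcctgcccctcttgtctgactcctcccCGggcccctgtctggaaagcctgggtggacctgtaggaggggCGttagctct
Thbs4: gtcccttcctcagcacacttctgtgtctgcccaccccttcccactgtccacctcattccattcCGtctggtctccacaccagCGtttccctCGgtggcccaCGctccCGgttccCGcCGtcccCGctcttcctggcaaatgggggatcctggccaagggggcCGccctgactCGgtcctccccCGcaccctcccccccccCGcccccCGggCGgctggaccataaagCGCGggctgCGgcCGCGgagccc
Fmod: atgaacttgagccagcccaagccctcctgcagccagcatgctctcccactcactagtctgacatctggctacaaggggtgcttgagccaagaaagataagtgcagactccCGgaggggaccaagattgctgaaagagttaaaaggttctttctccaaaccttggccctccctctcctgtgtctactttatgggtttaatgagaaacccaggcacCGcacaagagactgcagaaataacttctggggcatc
The Tnmd and Fmod windows held 2 CG each and the Thbs2 window 3, against a median of 6 over 32841 such windows. At most 2 CG occurred in 29% of all windows and at most 3 in 37.8%. The Thbs4 window was dense, with 19 CG, a number reached by 19.7% of windows. Of the other sequences, Cilp held 3 CG and Kera 1. The E-box CANNTG, which reads the same on both strands and is the motif that scleraxis binds, occurred in 66.2% of all windows; it was found once each upstream of Thbs2, Thbs4 and Fmod, 3 times upstream of Cilp, and not in the Tnmd or Kera windows. DNA methylation was not analysed here.

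Libraries held 41749327 to 51741478 counts at day 0, 14434197 to 18918714 at day 3 and 1100198 to 1888896 in cartilage. A gene with at most 3 counts in a library was treated as at the floor, equal to 0.058 to 0.0719 CPM (counts scaled to the library total) before treatment, 0.159 to 0.208 after it and 1.59 to 2.73 in the tissue. Levels below are CPM on 1 common scale for the 14 cultures and on another for cartilage, so levels are not compared between cultures and tissue. Dnmt1 itself was lower in cKO than in control at day 0 (log2 fold change −2.44), at day 3 (−1.41) and in cartilage (−1.66), with no overlap between the groups. The chondrocyte label was borne out in part. All 10 chondrocyte markers listed (among them Col2a1, Acan and Sox9) were above the floor in at least 1 library of every group, but their summed level was 141000 to 150000 CPM in control and 49200 to 60400 CPM in cKO cultures at day 0, and 86500 to 109000 against 959 to 15700 CPM at day 3. Markers of several other cell types also shifted. The skeletal muscle sum was 17.4 to 20.5 CPM in control and 81.1 to 88.4 CPM in cKO cultures at day 0, with Myod1 at 0 in every control culture, and 2.51 to 2.93 against 165 to 2180 CPM at day 3, where 6 of the 10 markers passed the floor in control and all 10 in cKO cultures. A single library stood apart: cKO replicate 4 at day 3 had a chondrocyte marker sum of 959 CPM, against 11100 to 15700 in the other 3. Its muscle marker sum was 165 CPM, against 1310 to 2180. It also had the lowest Dnmt1 level, 10.9 CPM, against 34.26, 35.65 and 22.23 CPM in cKO replicates 1 to 3. Fits below without this replicate therefore leave out the cKO culture with the least Dnmt1 RNA. Fibroblast markers ranged from 818 to 1210 CPM in control and from 379 to 1120 CPM in cKO cultures at day 3, with the lowest value in replicate 4. Also at day 3, osteoblast markers summed to 73.2 to 143 CPM in control and 561 to 771 CPM in cKO cultures. The cKO sum was mostly Alpl and Ibsp (means 334 and 201 CPM), and mean Phex was lower in cKO (0.511 and 0.229 CPM). Adipocyte markers summed to 1.36 to 2.81 and 26.5 to 39.7 CPM, with Lep at 0 in both. In cKO cultures this sum was mostly Fabp4 (mean 30.5 CPM), with Adipoq, Plin1 and Cidec at means of 0.803, 0.972 and 0.223 CPM. Schwann cell markers were lower in cKO cultures, at 217 to 267 CPM in control and 48.7 to 59.4 CPM in cKO, and were mostly S100b (means 240 and 50.9 CPM). Osteoclast markers were 111 to 139 CPM in control and 96.5 to 355 CPM in cKO cultures, highest in replicate 4. This sum was almost all Ctsk (107 to 136 and 92 to 350 CPM), so it mainly reads that gene. Acp5 had means of 2.54 and 3.92 CPM, and the other markers of this list were lower still. Leukocyte markers at day 3 were 4.8 to 7.17 CPM in control and 8.44 to 17.5 CPM in cKO, and endothelial markers 6.35 to 8.71 and 3.52 to 4.89 CPM. More sums were apart at day 0, given as control then cKO. Fibroblast markers were 1290 to 1520 and 1550 to 1670 CPM, and osteoclast markers 165 to 170 and 76.1 to 90.8 CPM. Schwann cell markers were 163 to 179 and 40.2 to 49 CPM. Leukocyte (2.6 to 3.38 and 4.5 to 5.79) and adipocyte (0.901 to 1.14 and 2.37 to 4.49) sums were low. The part of these shifts in the results below was not tested. In such bulk samples, fewer cells of a type and less RNA per cell cannot be told apart.

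**Figure D1:**
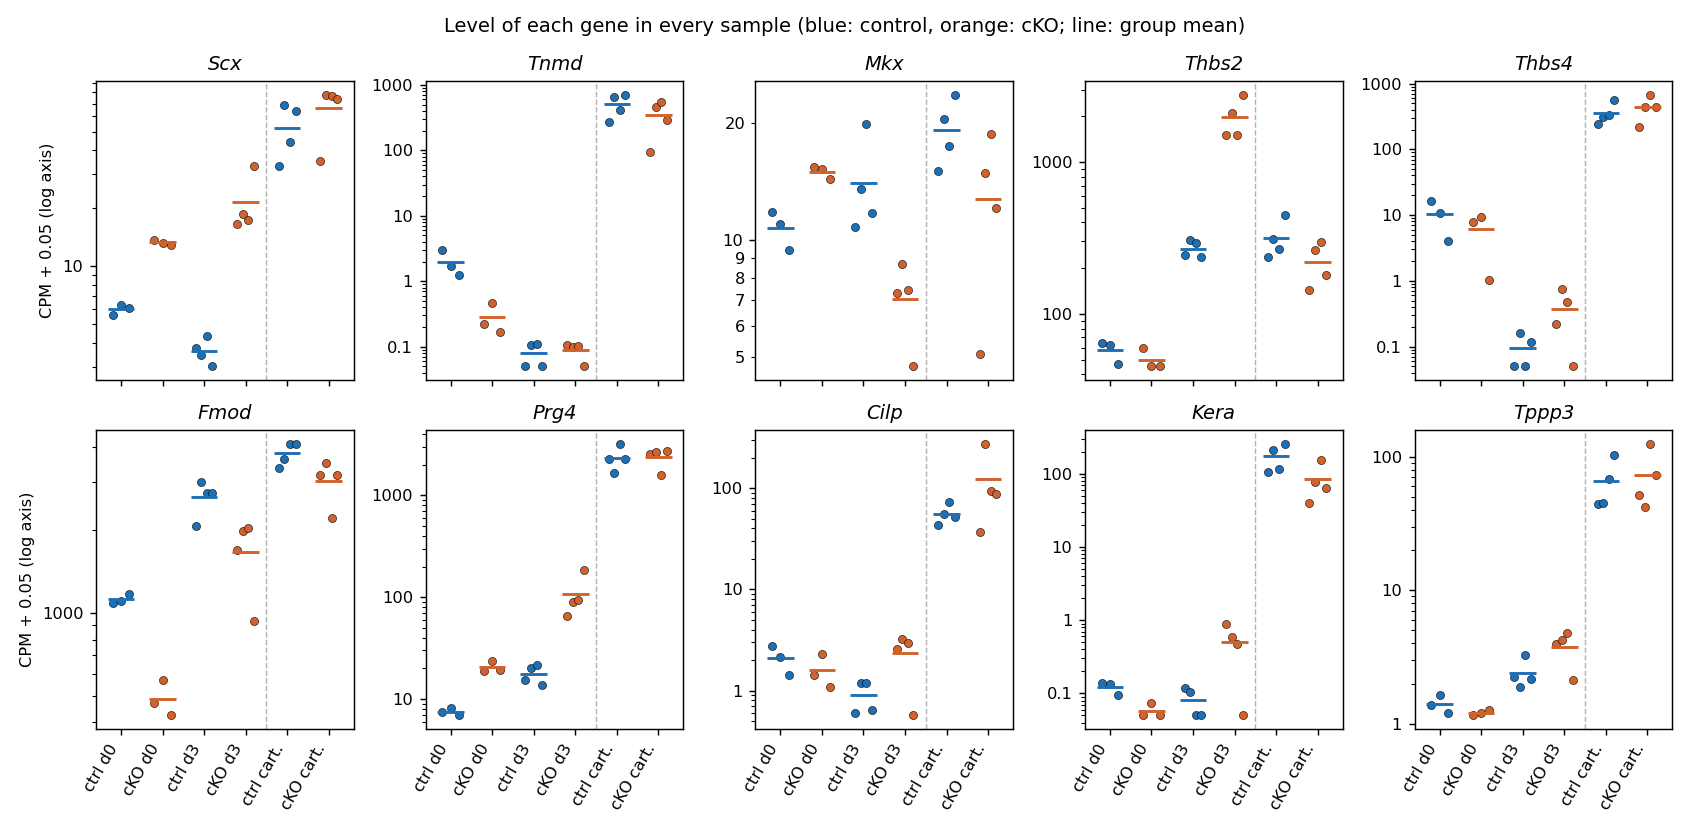
Level of each of the 10 genes in all 22 samples, as CPM plus 0.05 on a log axis. Points are samples, short lines are group means, blue is control and orange is cKO; the dashed line separates the cultures from cartilage, which has its own scale. Scx, Prg4 and Thbs2 at day 3 lie higher in all 4 cKO cultures than in all 4 controls, and Tnmd lies near the bottom of the axis in every day 3 culture.

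Per kilobase of exon, the 10 genes spanned a wide range in control cultures at day 0. Fmod stood far above the rest at 339 CPM per kb (328 to 354, lowest and highest of 3), and Thbs2 followed at 8.26 (6.65 to 9.18). Thbs4 (3.18), Scx (2.96) and Mkx (2.61) came next, and each overlapped its neighbour in range. Prg4 (1.74) and Tnmd (1.42) also overlapped, as did Tppp3 (0.738) and Cilp (0.485). Kera was close to undetected at 0.0319 CPM per kb, with 2 to 4 counts per library. In cKO cultures at day 3 Fmod (502 CPM per kb) and Thbs2 (281) were again first and second, now with overlapping ranges (283 to 616 and 214 to 397). Prg4 (25.1) and Scx (10.7) followed, and Thbs4 was down to 0.0971.

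At day 0, 3 of the 10 genes were higher in cKO cultures (Scx, Mkx and Prg4) and 2 were lower (Tnmd and Fmod). Thbs2, Thbs4, Cilp and Tppp3 did not pass the test, and Kera was too low to be tested. Calls used an adjusted p under 0.05 in edgeR's quasi-likelihood test with Benjamini-Hochberg adjustment over all genes tested. The 5 calls among 9 members tested stand against a background of 64.5% of the 15530 genes tested at day 0, with 33% higher and 31.6% lower. Ranges did not overlap in the same 5, against 70.4% of genes. At day 3, 3 members were higher in cKO (Scx, Thbs2 and Prg4), 2 were lower (Mkx and Fmod), Cilp and Tppp3 were not called, and Tnmd, Thbs4 and Kera were not tested. The background at day 3 was 48.1% of 13924 genes called (25.5% higher, 22.6% lower) and 47.9% without overlap. The median log2 fold change of the members tested was −0.24 at day 0 and 1.41 at day 3, beside 0.01 over all genes in both.

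**Figure D2:**
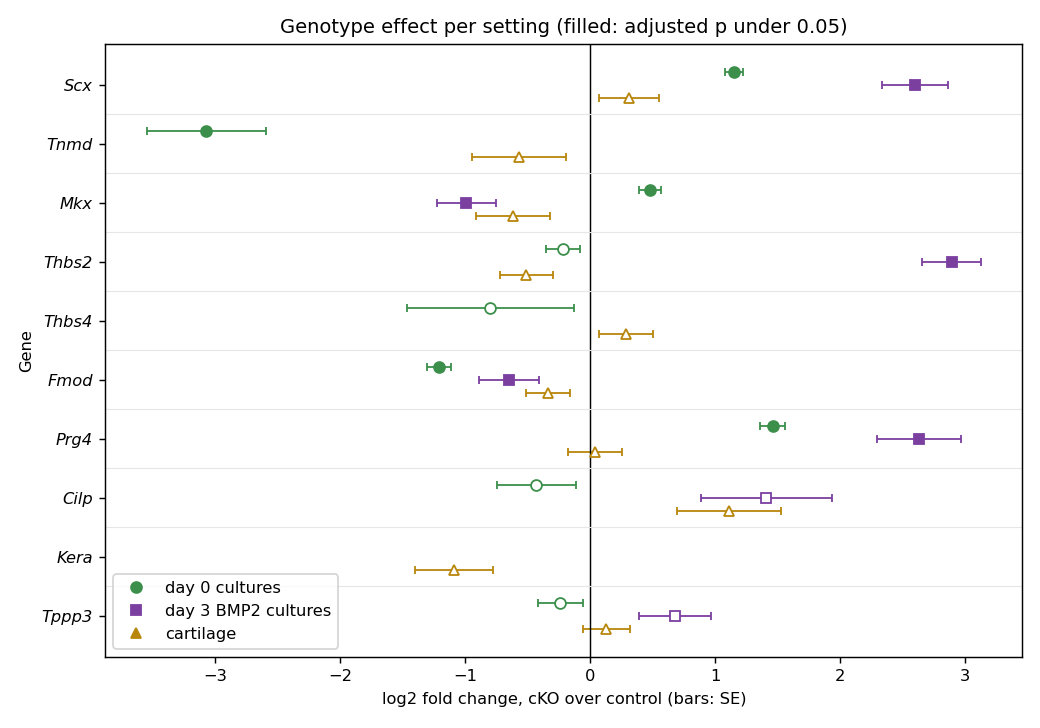
Log2 fold change of cKO over control for each gene at day 0, at day 3 and in cartilage, with bars for the standard error and filled symbols where the adjusted p was under 0.05. Scx and Prg4 are filled to the right of 0 in both cultures, Fmod is filled to the left in both, Mkx changes side between day 0 and day 3, and no cartilage symbol is filled; genes not tested in a setting have no symbol.

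Scx, the transcription factor that marks tendon progenitors, was higher in cKO cultures on both days. At day 0 the 3 controls had 5.55, 6.23 and 6.03 CPM and the 3 cKO cultures 13.7, 13.2 and 12.8 CPM. Every cKO culture was above every control, a 2.22-fold difference (log2 1.15, SE 0.0757, adjusted p 1.73e-06). At day 3 the controls had 3.70, 3.42, 4.26 and 2.97 CPM and the cKO cultures 16.6, 18.7, 17.3 and 33.1 CPM. The groups were again apart, by 6.04-fold (log2 2.60, SE 0.265, adjusted p 0.000125), with replicate 4 the highest; without it the log2 value was 2.28 (adjusted p 1.05e-06). The gene lies inside the span of Bop1, a ribosome biogenesis gene on the other strand, and whether reads were counted by strand is not given in the sources used here. Bop1 was also higher in cKO, by less (log2 0.24 at day 0 and 0.65 at day 3).

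Mkx, the second tendon transcription factor, differed in opposite directions on the 2 days. Control cultures at day 0 had 11.8, 10.9 and 9.38 CPM and cKO cultures 15.4, 15.2 and 14.3 CPM, which put the cKO group 1.40-fold higher (log2 0.48, SE 0.0878, adjusted p 0.00105). At day 3 the controls had 10.8, 13.5, 19.9 and 11.7 CPM and the cKO cultures 7.26, 8.64, 7.36 and 4.67 CPM. All 4 cKO cultures were then below all 4 controls, by 1.98-fold (log2 −0.99, SE 0.239, adjusted p 0.00919). The higher level at day 0 missed the threshold in a joint fit of the 14 cultures (log2 0.49, adjusted p 0.0953), while the lower level at day 3 was called in each of 13 alternatives. Mkx overlaps an unnamed gene model, AC148004.2, on the same strand.

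Tnmd, the marker of maturing tendon cells, was scarce in culture and, at day 0, scarcer in cKO than in control cultures. Its levels at day 0 were 2.93, 1.65 and 1.20 CPM in control and 0.168, 0.413 and 0.116 CPM in cKO cultures (6 to 18 counts). The cKO group was lower by 8.38-fold without overlap (log2 −3.07, SE 0.475, adjusted p 0.000382). At day 3 no culture of either genotype had more than 1 count, so no difference was detectable at this depth. Tppp3, the marker of tendon sheath cells, was low in all cultures. It had 1.33, 1.61 and 1.16 CPM in control and 1.10, 1.15 and 1.22 CPM in cKO cultures at day 0, with overlap (log2 −0.24, adjusted p 0.274). At day 3 it had 2.19, 1.85, 3.24 and 2.11 CPM in control and 3.94, 4.20, 4.75 and 2.08 CPM in cKO cultures. The first 3 cKO cultures were above every control and replicate 4 was not, and the difference was not called (log2 0.68, SE 0.287, adjusted p 0.0796); it was called without that replicate (0.87, adjusted p 0.00839) and in the joint fit of the 14 cultures (0.67, adjusted p 0.0345), but not by DESeq2 (adjusted p 0.0615).

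The paired thrombospondins Thbs2 and Thbs4, secreted glycoproteins that bind cells and matrix, differed from each other. Thbs2 at day 0 had 64.3, 62.7 and 46.6 CPM in control and 59.1, 45.4 and 45.1 CPM in cKO cultures, with overlapping ranges and no call (log2 −0.22, SE 0.136, adjusted p 0.185). At day 3 it had 244, 305, 292 and 235 CPM in control and 1516, 2090, 1496 and 2781 CPM in cKO cultures. This was the largest genotype difference among the members tested at day 3, 7.42-fold (log2 2.89, SE 0.234, adjusted p 3.99e-05), and was 2.66 without replicate 4. Thbs4, abundant in tendon, varied widely between replicates at day 0, from 4 to 16.5 CPM in control and from 0.99 to 9.42 CPM in cKO cultures. The ranges overlapped, and the log2 difference of −0.80 had an SE of 0.667 (adjusted p 0.322). At day 3 it was at the floor in all 4 controls (3 counts in all), while cKO cultures 1 to 4 had 3, 14, 8 and 0 counts. Summed over the libraries, this was a ratio of 7.25, with a 95% interval of 2.21 to 37.5 that covers counting error only.

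Among the leucine-rich proteoglycans, Fmod was the abundant member and Kera the scarce one. Fmod at day 0 had 1084, 1109 and 1172 CPM in control and 468, 568 and 423 CPM in cKO cultures, 2.31-fold lower in cKO with a wide gap between the groups (log2 −1.21, SE 0.095, adjusted p 5.15e-06). At day 3 the controls had 2068, 2990, 2738 and 2727 CPM and the cKO cultures 1694, 1979, 2037 and 934 CPM. All 4 cKO cultures were below all 4 controls, but the highest cKO culture lay just under the lowest control, and the call was marginal (log2 −0.65, SE 0.238, adjusted p 0.0498). It held in 7 of 13 alternatives and in 3 of the 8 fits that left out 1 library; without cKO replicate 4 it was −0.47 (adjusted p 0.0175). Kera had 4, 4 and 2 counts in the control and 0, 1 and 0 counts in the cKO cultures at day 0. At day 3 it had 1, 1, 0 and 0 counts in control and 15, 11, 8 and 0 counts in cKO cultures. The first 3 cKO cultures thus carried Kera above the floor, and replicate 4 had none. The ratio of the sums at day 3 was 14.8 (95% counting interval 3.79 to 127).

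At the joint surface, Prg4 was higher in cKO cultures on both days. Day 0 levels were 7.34, 8.16 and 6.84 CPM in control and 18.9, 23.4 and 19.4 CPM in cKO cultures, a 2.75-fold difference (log2 1.46, SE 0.101, adjusted p 2.36e-06). At day 3 they were 15.2, 19.9, 21.7 and 13.6 CPM in control and 65.0, 88.8, 92.8 and 183 CPM in cKO cultures. The lowest cKO culture was well above the highest control, and the groups differed 6.19-fold (log2 2.63, SE 0.337, adjusted p 0.000398; 2.22 without replicate 4). Tpr, which overlaps Prg4 on the other strand, was not called in either culture (log2 0.04 on both days, adjusted p 0.243 and 0.839). Cilp had 2.69, 2.11 and 1.39 CPM in control and 1.37, 2.23 and 1.03 CPM in cKO cultures at day 0, with overlap (log2 −0.43, adjusted p 0.255). At day 3 the controls had 0.548, 1.14, 1.14 and 0.594 CPM and the cKO cultures 2.53, 3.21, 2.92 and 0.519 CPM. Here 3 cKO cultures were above every control and replicate 4 was below them all. The difference missed the threshold in edgeR's test (log2 1.41, SE 0.522, adjusted p 0.0516). It passed without that library (1.72, adjusted p 0.000994), and with all libraries by DESeq2 (adjusted p 0.0261) and in the joint fit of the 14 cultures (adjusted p 0.0255).

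From day 0 to day 3 with BMP2, most members changed in each genotype, and several changed strongly. In control cultures 4 of 9 members tested rose (Thbs2, Fmod, Prg4 and Tppp3) and 4 fell (Scx, Tnmd, Thbs4 and Cilp), against 56.9% of 14909 genes called (28.1% higher, 28.8% lower). In cKO cultures 5 rose (Scx, Thbs2, Fmod, Prg4 and Tppp3) and 3 fell (Tnmd, Mkx and Thbs4), against 62.2% (32.4% higher, 29.8% lower). Ranges of the days did not overlap for 8 members in each genotype, against 64% of genes in control and 62.5% in cKO. The median log2 change was 0.39 in control and 0.69 in cKO cultures, beside 0 and 0.02 over all genes. It was 0.78 and 1.69 without Tnmd and Thbs4, which fell in both genotypes, so leaving them out raised the median. Day, BMP2, count table and depth changed together, so the change cannot be told apart from any of them. Both comparisons drew on 1 fit of the 14 cultures.

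**Figure D3:**
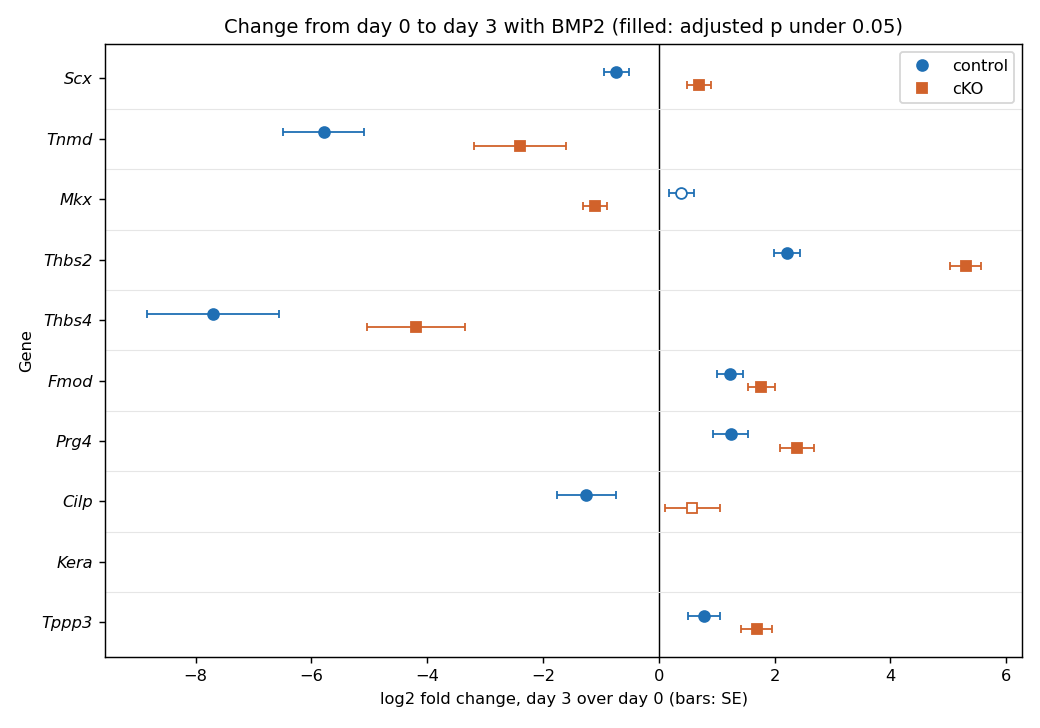
Log2 change from day 0 to day 3 for each gene in control (circles) and cKO (squares) cultures, with standard errors and filled symbols where the adjusted p was under 0.05. Thbs2, Fmod, Prg4 and Tppp3 lie right of 0 in both genotypes, Tnmd and Thbs4 lie left of 0 in both, and the Scx symbols lie on opposite sides of 0; at day 3 Tnmd was at the floor in both genotypes and Thbs4 in control cultures.

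Of the members tested in the fit, Thbs2 had the largest rise, by 4.65-fold in control cultures (log2 2.22, SE 0.225) and by 39.5-fold in cKO cultures (5.30, SE 0.263). Prg4 rose by 2.37-fold in control and 5.23-fold in cKO cultures (log2 1.24 and 2.39), and Fmod by 2.35-fold and 3.41-fold (1.23 and 1.77). Tppp3 rose by 1.72-fold and 3.22-fold (0.78 and 1.69), although the rise in control was lost in 3 of 19 alternatives. These 4 genes moved in the same direction in both genotypes. The transcription factors did not. Scx fell in control cultures (log2 −0.73, SE 0.220, adjusted p 0.0128) and rose in cKO cultures (0.69, SE 0.205, adjusted p 0.0101), where the value was 0.41 without replicate 4. Bop1, which overlaps Scx, fell over the days in both genotypes (−0.93 in control and −0.54 in cKO). Mkx was not called in control (0.39, adjusted p 0.137) and fell in cKO cultures (−1.10, SE 0.211, adjusted p 0.000582).

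Tnmd and Thbs4 fell to the floor or near it. Tnmd went from 264 counts over 3 control libraries at day 0 to 2 over 4 libraries at day 3, a ratio of 62.8 after scaling (95% counting interval 17.2 to 521). In cKO cultures it went from 31 counts to 3, a ratio of 5.63 (1.76 to 28.8), and this fall was not called without cKO replicate 4 at day 3 (adjusted p 0.0547) or cKO replicate 2 at day 0 (adjusted p 0.0825). Thbs4 went from 1442 counts to 3 in control cultures, a ratio of 229 (78 to 1110). In cKO cultures it fell from a mean of 6.11 to 0.319 CPM, or 18.2-fold (log2 −4.19, SE 0.849, adjusted p 0.000857). Kera, untested in the fit, went from 1 count over the 3 cKO cultures at day 0 to 34 over 4 at day 3, a ratio of 62.3 (10.5 to 2534), and from 10 to 2 in control, where the interval of the ratio included 1 (0.507 to 22.3). The fall of Cilp in control cultures was marginal (log2 −1.25, SE 0.505, adjusted p 0.0497), and it held in 6 of 19 alternatives.

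The difference between the genotype effects of the 2 days was itself tested. It was called for 3 of 9 members, against 16.8% of 14909 genes (9.94% with a positive and 6.89% with a negative difference). The genotype effect was larger at day 3 for Thbs2 (log2 difference 3.09, SE 0.302, adjusted p 7.2e-05) and for Scx (1.42, SE 0.301, adjusted p 0.0072). It turned from higher to lower for Mkx (−1.48, SE 0.300, adjusted p 0.00558). These 3 were called in all 18 alternatives. The difference for Prg4 was not called by edgeR (1.14, SE 0.403, adjusted p 0.0708) and was called by DESeq2 (1.15, adjusted p 0.03). Not called by either tool were those for Cilp (1.83, adjusted p 0.0946), Tppp3 (0.91, adjusted p 0.123), Fmod (0.54, adjusted p 0.267), Tnmd (3.39, adjusted p 0.135) and Thbs4 (3.51, adjusted p 0.204). Without cKO replicate 4 at day 3, 7 members were called, with Prg4 at 0.76 (adjusted p 0.0253), Cilp at 2.16 (adjusted p 0.00405), Tppp3 at 1.11 (adjusted p 0.0106) and Fmod at 0.74 (adjusted p 0.00846) added.

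In cartilage taken directly from the mice, all 10 genes were detected and tested, and none was called between genotypes by edgeR's quasi-likelihood test. The background there was lower, at 6.19% of 8793 genes (3.15% higher, 3.04% lower), and 3 members had an unadjusted p under 0.05 (Thbs2, Cilp and Kera), against 21.7% of all genes. The count by DESeq2 was also 0. All 10 pairs of ranges overlapped, where 13.5% of genes did not. The median log2 fold change of the members was −0.15, beside 0.01 over all genes. All 4 control libraries were in one library pool and all 4 cKO libraries in another, so pool and genotype cannot be told apart. The summed chondrocyte markers were 66100 to 99000 CPM in control and 30300 to 58900 CPM in cKO cartilage, and fibroblast markers were 1060 to 1310 and 1010 to 1630 CPM. Skeletal muscle markers summed to 29.3 to 97.6 CPM in control, with Myh3 and Myh8 at 0, and to 112 to 324 CPM in cKO cartilage, with Myog at 0. Osteoclast markers summed to 124 to 454 CPM in control and 58.8 to 119 CPM in cKO cartilage, without overlap, and all 3 that were tested were called lower. Osteoblast markers summed to 148 to 372 and 25 to 317 CPM, with 1 of 3 called lower. Their part in the values below was not tested.

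Kera came closest to a call. Control samples 1 to 4 had 104, 210, 116 and 256 CPM and cKO samples 39.5, 76.1, 154 and 64.6 CPM. Only cKO replicate 3 reached into the control range, and the mean was 2.13-fold lower in cKO (log2 −1.09, SE 0.313, adjusted p 0.0509). The adjusted p was under 0.05 in 7 of 14 alternatives, over which it ranged from 4.07e-10 to 0.245. Cilp had 43.5, 55.5, 73.4 and 52.0 CPM in control and 36.9, 275, 94.6 and 87.9 CPM in cKO cartilage. The highest value, in cKO replicate 2, was far above the rest (log2 1.11, SE 0.413, adjusted p 0.13), and without it the log2 value was 0.24 (adjusted p 0.516). Thbs2 had 237, 310, 267 and 447 CPM in control and 144, 262, 297 and 181 CPM in cKO cartilage, with overlap (log2 −0.51, SE 0.212, adjusted p 0.173).

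The tendon markers varied within each genotype. Tnmd had 269, 647, 415 and 712 CPM in control and 93.2, 459, 556 and 287 CPM in cKO cartilage, with wide overlap (log2 −0.57, SE 0.374, adjusted p 0.394). Mkx had 15.0, 20.5, 17.4 and 23.7 CPM in control and 5.04, 14.9, 18.7 and 12.1 CPM in cKO cartilage, with 3 cKO samples under every control (log2 −0.62, SE 0.296, adjusted p 0.239). Scx had 33.0, 69.1, 44.0 and 63.8 CPM in control and 35.3, 77.8, 76.7 and 74.1 CPM in cKO cartilage. For Scx, 3 cKO samples lay above every control and replicate 1 lay near the lowest (log2 0.31, SE 0.242, adjusted p 0.479). Bop1, which overlaps Scx on the other strand, differed by more (log2 0.61, SE 0.247) and was not called by edgeR (adjusted p 0.163). Its ranges in control and cKO cartilage did not overlap, beside 13.5% of all genes. Thbs4 ranged from 240 to 558 CPM in control and from 222 to 680 CPM in cKO cartilage (log2 0.29, SE 0.216), and Tppp3 from 44.3 to 103.5 and from 42.0 to 125 CPM (0.13, SE 0.186). Neither abundant gene was called. Fmod ranged from 3364 to 4126 CPM in control and from 2218 to 3521 CPM in cKO cartilage (log2 −0.34, SE 0.177, adjusted p 0.282), and Prg4 from 1665 to 3219 and from 1605 to 2714 CPM (0.04, SE 0.215, adjusted p 0.936).

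Several members varied together across the 8 cartilage samples. The log2 levels of Tnmd and Mkx had a Pearson r of 0.968, those of Thbs2 and Kera 0.943, those of Mkx and Kera 0.919 and those of Tnmd and Thbs2 0.912 (8 samples; Spearman's rho 0.881, 0.976, 1 and 0.952). The cKO replicate 1 was lowest for Tnmd, Mkx, Thbs2 and Kera. Prg4 did not follow these genes (r −0.404 with Tnmd and −0.548 with Kera). Across the 14 cultures the closest members were Thbs2 and Prg4 (r 0.871) and Tnmd and Thbs4 (0.867), whereas Scx and Tnmd had an r of −0.15. At day 3 Tnmd was at the floor in every culture and Thbs4 in every control culture. These correlations describe samples that share a depth, a pool or a group, and no test was made of them.

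**Figure D4:**
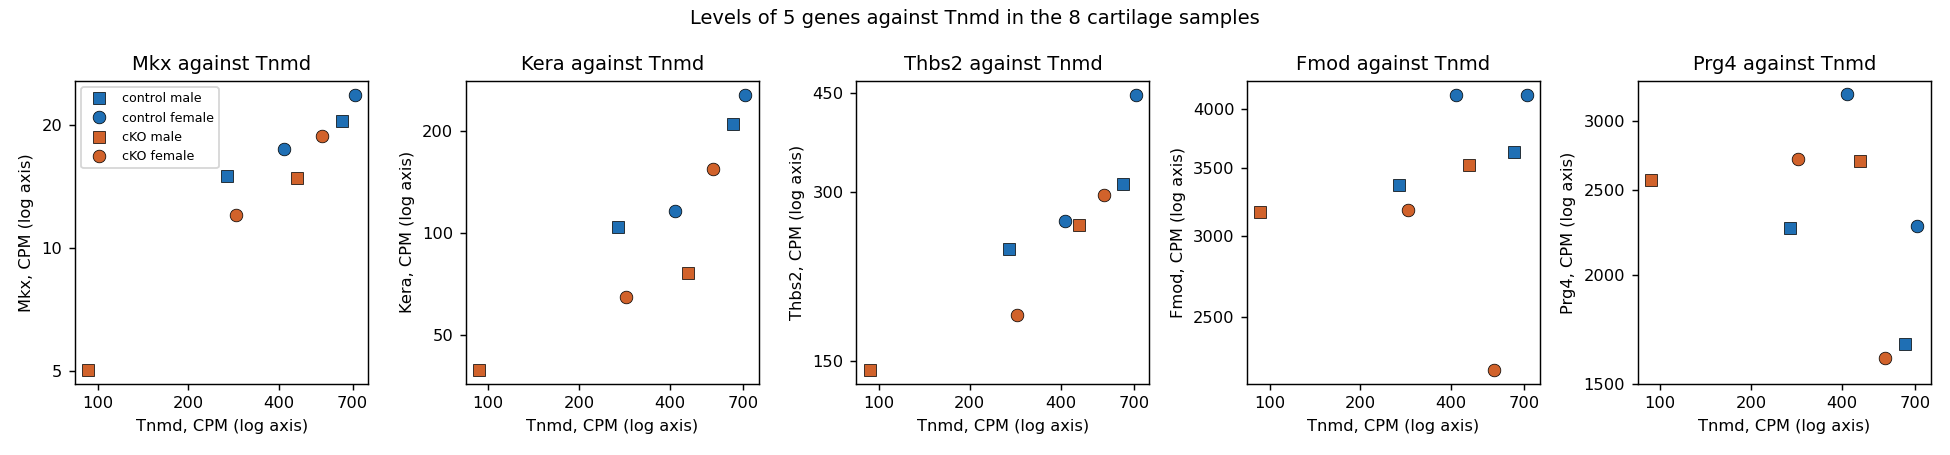
Levels of Mkx, Kera, Thbs2, Fmod and Prg4 against Tnmd in the 8 cartilage samples, in CPM on log axes. Blue is control, orange is cKO, squares are males and circles are females. Mkx, Kera and Thbs2 rise with Tnmd from the cKO male at 93.2 CPM of Tnmd to the control female at 712 CPM, and Prg4 does not.

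By a fixed measure, Pearson's r of log2 CPM over the 14 cultures among 11864 genes (11865 for Tnmd), the genes most like Scx were Palld, Cul4b and Hip1 (r 0.986 to 0.987). Smyd4, Plekha2 and Akap2 were most like Prg4 (0.986 to 0.988), and Pfkm, Klc3 and Ppp1r3c most like Fmod (0.984 to 0.988). For Tnmd they were Itpr2, Adamts14 and Srebf2 (0.964 to 0.977). Tnmd had at most 1 count in every day 3 culture, so its r values rest on its day 0 levels and the drop from them. The 14 cultures fall into 4 groups, which all these genes share.

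Other genes of the same tissues were read from lists of 20 tendon and ligament genes, 18 joint interzone and articular surface genes and 14 genes of transforming growth factor β (TGF-β) signalling, the pathway that induces Scx in tendon. Of the tendon and ligament genes, 13 were lower and 4 higher in cKO cultures at day 0 (median log2 fold change −0.56), beside 33% of all genes higher and 31.6% lower. The lower ones were led by Aspn (asporin, −1.75), Comp (−1.70) and Lum (lumican, −1.69), and the higher ones by Prelp (0.78), Omd (0.64) and Thbs1 (0.59). At day 3, 4 were lower, among them Comp (−2.36), Thbs3 (−1.90) and Ogn (−1.46), and 4 were higher, among them Tnc (tenascin C, 0.96), Postn (periostin, 0.93) and Prelp (0.89), with a median of −0.13, beside 25.5% of all genes higher and 22.6% lower. The list was thus mixed in direction. In cartilage only Thbs1 (−0.84) and Col12a1 (−0.71) of the 20 were called, both lower, beside 3.04% of all genes lower.

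The same shares of all genes are the background for the next 2 lists. Of 17 joint genes tested at day 0, 8 were higher and 7 lower in cKO cultures (median 0.05). The higher ones were led by Gdf6 (2.32), the hyaluronan receptor Cd44 (2.18) and the joint interzone signal Gdf5 (1.36), and the lower ones by Cilp2 (−1.57), Barx1 (−1.07) and Has2 (hyaluronan synthase, −1.01). At day 3, 7 were higher, led by Cd44 (2.40), Dkk3 (2.34) and Wnt9a (2.09), and Barx1 (−1.16) and Cilp2 (−0.78) were lower (median 0.32). In cartilage Wnt4 (−1.05) and Barx1 (−0.53) were lower, and the other 12 tested were not called. For the TGF-β list, 7 of 14 were higher and 3 lower at day 0 (median 0.12), and at day 3 9 were higher and the other 5 were not called (median 0.68). Among the higher genes on both days were the feedback inhibitor Smad7 (log2 1.09 at day 0 and 2.33 at day 3) and the latent TGF-β binding protein Ltbp1 (1.26 and 2.28). In cartilage Tgfb2 (−0.65) and Ltbp1 (−0.61) were lower and the other 12 were not called.

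Over the days, 13 of the 20 tendon and ligament genes rose and 2 fell in control cultures (median 0.87), and 11 rose and 2 fell in cKO cultures (median 0.96). Over all genes, 28.1% rose and 28.8% fell in control and 32.4% rose and 29.8% fell in cKO cultures. Col14a1 (4.66 and 4.83), Aspn (3.66 and 4.06) and Postn (2.99 and 5.18) rose most in both. Of the joint genes, 6 rose and 2 fell in control cultures (median 0.42) and 9 rose and 2 fell in cKO cultures (median 0.70), with Gdf5 falling in both (−1.71 and −2.11). Of the TGF-β list, 3 rose and 7 fell in control cultures (median −0.32), and 5 rose and 3 fell in cKO cultures (median 0.14). The difference between the genotype effects was called for 4 tendon genes (Lum, Postn, Col1a1 and Col1a2), 2 joint genes (Dkk3 and Has2) and 4 genes of the TGF-β list (Smad7, Tgfb3, Tgfbi and Tgfbr1), all with a positive difference, out of 20, 17 and 14 tested and beside 16.8% of all genes called. Col1a2 and Tgfbr1 were named after their values were seen.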

How the data were processed

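For the cultures, a directional kit turned total RNA into libraries, and cartilage RNA went through a barcoded 3′ method (BRB-seq) whose primers carry molecular identifiers, per the labels' protocols. The submitters' processing notes name UMI-tools 1.1.1, Trim Galore 0.6.7, HISAT2 2.2.1, featureCounts 2.0.1 and DESeq2 1.34.0 for cartilage and the build GRCm38 for all samples. The aligner and counting tool of the cultures are not given in the sources used here. For the cultures the authors deposited raw values per gene that are partly fractional, read here as estimated counts, in a table per day; they were rounded to whole numbers. For cartilage the authors deposited whole-number counts, used here as the main values, and estimated counts, used as an alternative. Unused columns of per-sample values numbered 0.

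Tests used edgeR 4.0.16 in R 4.3.3 (quasi-likelihood, TMM scaling, filterByExpr at 10 counts and 15 in total, Benjamini-Hochberg over all genes tested). Genotype effects were fitted per setting, with sex as a covariate in cartilage, and changes over days and their difference in 1 fit of the 14 cultures. Standard errors (SE) are the log2 fold change over the square root of F. DESeq2 1.42.0, RLE scaling, no filter, each library left out, a replicate block and other sample sets were alternatives. The fitting code was run on simulated counts with a small share of genes changed by a known fold, a fixed spread and no sex term. Such counts are simpler than these samples, so they check the code only. CPM per kb used exon lengths of GENCODE M21. Intervals and floors cover counting error only. Culture titles call the replicates biological, and the labels do not tie any replicate to an animal, so p-values measure the spread between these samples. No replicate pair agreed within sampling noise (chi-square per degree of freedom 3.53 to 138). The members and lists were chosen with earlier results of these data known. All 10 members were named, with at most 3 rising and 3 falling called genes of each other list per comparison by size, relatives of the members, and the 3 genes most correlated with Scx, Tnmd, Fmod and Prg4. A result for 1 gene of these lists is not reported here.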

Additional observations from a re-analysis of the deposited data

Results flagged for a closer look

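Within groups of 4 samples, 36 sets of member values were examined for a sample far from the others, and 3 were marked; chance marks about 1 group in 20. Scx in cKO cultures at day 3 was 33.1 CPM in replicate 4, against 16.6 to 18.7 in the other 3. Scx in cKO cartilage was 35.3 CPM in replicate 1, against 74.1 to 77.8 in the others. Prg4 in cKO cartilage was 1605 CPM in replicate 3, the lowest of 4, against 2566 to 2714 in the others. The genotype effect differed between day 3 and day 0, by a test of the difference itself, for Scx (log2 difference 1.42), Mkx (−1.48) and Thbs2 (3.09).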

How the results depend on the processing

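The count of members called in cartilage, 0, became 1 with RLE scaling (Kera), 1 with a replicate block (Kera), 1 with the deposited estimated counts (Kera), 4 without a filter on low counts (Cilp, Kera, Thbs2 and Tnmd) and 0 to 1 when each library was left out. Kera was called without control replicate 1, control replicate 3 or cKO replicate 3, and Cilp without cKO replicate 1. The count for the difference between days, 3, ranged from 3 to 7 with a library left out, and was 7 without cKO replicate 4 at day 3. With the replicate number as a block, the counts were 7 at day 0 (Thbs2 and Thbs4 added), 5 at day 3 (Fmod lost at adjusted p 0.0711, Cilp added at 0.0475), 7 for the change over days in control (Cilp lost), 8 in cKO, and 4 for the difference (Cilp added). The correlation of same-numbered deviations was lowest at −0.0634 and highest at 0.14 for day 0, −0.145 and −0.064 for day 3, and −0.0819 and 0.265 for cartilage. At least 1 pair lay below 0.1 in each. With so few samples per group, these values cannot decide whether the numbers pair the samples. Signs changed only for uncalled values in cartilage. Prg4 (0.04) was −0.13 without control replicate 2, −0.01 without control replicate 4, −0.03, −0.05 and −0.04 without cKO replicates 1, 2 and 4, and −0.02 with the estimated counts, with a range of −0.13 to 0.25 when each library was left out. Tppp3 (0.13) was −0.01 without control replicate 3 and −0.09 without cKO replicate 3, with a range of −0.09 to 0.27. Leaving out 1 library also lost the call of Fmod at day 3 (without control replicates 2, 3 and 4 or cKO replicates 1 and 2) and of Tppp3 over days in control (without control replicates 1 and 3 at day 0 or replicate 3 at day 3), and of Cilp over days in control in 11 of 14 fits. It added Cilp (without cKO replicate 2) and Thbs2 (without control replicate 3 or cKO replicate 1) at day 0, Tppp3 at day 3 (without control replicate 3) and Prg4 to the difference (without cKO replicate 1 at day 3). DESeq2 called 6 members at day 3 (Cilp added) and 4 for the difference (Prg4 added), and the joint fit of 14 cultures called 7 at day 3 (Cilp and Tppp3 added) and 4 at day 0 (Mkx lost). Over all genes, the cartilage count of 544 was 357 by DESeq2, 1044 without a filter and 362 without cKO replicate 4, the day 0 count of 10023 was 6260 in the fit of 14 cultures, and the count of 2509 for the difference was 1591, 1668, 1604 and 4051 without control replicates 2 and 3 at day 0, cKO replicate 3 at day 0 and cKO replicate 4 at day 3. The causes were not tested. In cultures at day 3, Tnmd, Thbs4 and Kera had too few counts for the test between genotypes.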

Other observations

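The relatives of the members did not share one pattern. Among the thrombospondins, Thbs1 was abundant in culture at day 0, at 1930 CPM per kb in control and 2910 in cKO cultures (Comp 793 and 244), and it was higher in cKO (log2 fold change 0.59). Comp and Thbs3 were lower in cKO at day 0 (−1.70 and −1.54) and at day 3 (−2.36 and −1.90), where Thbs2 was higher. Comp at day 3 ranged from 196 to 759 CPM in cKO and from 2590 to 3120 CPM in control cultures. In cartilage Thbs1 was lower in cKO (511 to 641 CPM in control and 252 to 445 in cKO, log2 −0.84, adjusted p 0.00382), and Comp (−0.16) and Thbs3 (−0.15) were not called.

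Among the class II leucine-rich proteoglycans, Lum was lower in cKO cultures at day 0 (−1.69), as Fmod was, and Prelp (0.78) and Omd (0.64) were higher. Lum then rose in cKO cultures from a mean of 54.6 CPM at day 0 to 417 CPM at day 3 (log2 2.93, adjusted p 0.000536), with the lowest culture at day 3 at 54 CPM. Its genotype effect differed between the days (log2 difference 2.40, adjusted p 0.0372). Prelp was higher in cKO at day 3 too (0.89, adjusted p 0.00224), and none of Lum, Prelp and Omd was called in cartilage (adjusted p 0.626, 0.187 and 0.398).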
